A study of Mus musculus with 19 samples.

Results

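The myosin heavy chains are the motor proteins of the muscle thick filament, and this account follows 9 of their genes, chosen by name, through the libraries of mouse muscle, heart, fat and other tissues sequenced in a study of the myokine Musclin (gene Ostn). The genes were Myh1, Myh2, Myh3, Myh4, Myh6, Myh7, Myh7b, Myh8 and Myh11. They were 9 of 55573 genes listed for 7 tissues, 9 of 55487 listed for brown fat and 5 of 13756 listed for inguinal fat, where Myh3, Myh6, Myh7b and Myh8 were not analysed. Each limb muscle fibre of an adult mouse carries mainly 1 heavy chain: Myh4 encodes the chain of the fastest, type IIb fibres, Myh1 that of type IIx, Myh2 that of type IIa, and Myh7 that of slow type I fibres. Myh3 and Myh8 encode the embryonic and perinatal chains, Myh6 and Myh7 the alpha and beta chains of the heart, Myh7b a chain related to the cardiac pair, and Myh11 the chain of smooth muscle. Adipocytes are not known to build sarcomeres, and a piece of fat can hold striated fibres of nearby muscle as well as smooth muscle of its vessels. Which cells held the chains read in fat was not tested.

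All mice were male and of the C57BL/6J background. A set of 7 tissues came from wild type (WT) mice for which the labels name no treatment: brain, liver, heart, small intestine, the tibialis anterior (TA) muscle of the lower leg, brown adipose tissue (BAT) and white adipose tissue (WAT). It has 1 library for each tissue and therefore no replicate and no test. Inguinal WAT (iWAT) and BAT each came from 3 WT and 3 MCK-Musclin mice, all chow-fed per the study and kept at 8 °C for 1 week, and 5 months old per the study. The BAT samples carry the tissue label "Brown white adipose tissue". MCK-Musclin mice carry the Musclin coding sequence under the muscle creatine kinase (MCK) promoter, which drives expression in striated muscle. Several founder lines were made, and the line used here is not given in the sources used here. RNA of the WAT and iWAT samples was extracted with a kit and that of the other tissues with TRIzol, so the extraction method and the fat depot cannot be told apart.

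Levels are in FPKM, fragments scaled to transcript length and to the mapped fragments of the library, a scale per length on which genes may be compared. Read depth is unknown, because the values carry no counts. Of 10 marker genes for the labelled tissues, 10 were highest in the tissue they mark, among them Alb in liver (22399 FPKM) and Ucp1 in BAT (467 FPKM). The transgene product was listed at 0 in all 3 WT BAT libraries, and MCK-Musclin BAT held 37.9, 31.6 and 30.3 FPKM of Ostn. In iWAT, Ostn was 0, 0 and 0.225 FPKM in WT and 0, 5.17 and 4.21 FPKM in MCK-Musclin, so the library MCK-Musclin 1 was no higher than WT. Some libraries stood apart in muscle genes. The sum of 18 genes of fast fibres, described with the fat libraries below, was 4651 FPKM in iWAT WT 3, 848 FPKM in WT 2 and 51.1 FPKM in WT 1, and BAT MCK-Musclin 1 had the highest sum among the 6 BAT libraries (1860 FPKM against 535 to 1224). Results of the heavy chains and of those 18 genes that rest on these libraries are given with and without them.

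Of the 9 genes, 5 lie in a cluster on chromosome 11, in the order Myh3, Myh2, Myh1, Myh4 and Myh8, over 230 kb on the plus strand (GRCm38, chr11:67078300-67308634). Myh6 and Myh7 lie next to each other on the minus strand of chromosome 14 (chr14:54941921-54966927 and chr14:54970684-54994626), Myh7b on chromosome 2 (chr2:155611212-155634307, plus strand) and Myh11 on chromosome 16 (chr16:14194535-14291372, minus strand). RefSeq promoter windows, from 250 bases before to 50 bases after the annotated start, were on hand for 8 of the 9 genes, and Myh11 had none. The windows of the 3 adult fast genes are printed because these genes were each highest in TA muscle and are the chains compared most closely in fat. Capitals mark the single stretch of at least 12 bases that all 3 windows share.
Myh4 (GRCm38.p6, chr11:67237562-67237861, plus strand): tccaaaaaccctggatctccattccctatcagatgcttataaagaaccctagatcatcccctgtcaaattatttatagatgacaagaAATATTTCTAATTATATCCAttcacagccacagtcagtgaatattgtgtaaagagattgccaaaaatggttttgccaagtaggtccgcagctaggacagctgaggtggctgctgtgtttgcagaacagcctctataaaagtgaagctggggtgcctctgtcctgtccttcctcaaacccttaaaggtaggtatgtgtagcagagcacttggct
Myh1 (GRCm38.p6, chr11:67199852-67200151, plus strand): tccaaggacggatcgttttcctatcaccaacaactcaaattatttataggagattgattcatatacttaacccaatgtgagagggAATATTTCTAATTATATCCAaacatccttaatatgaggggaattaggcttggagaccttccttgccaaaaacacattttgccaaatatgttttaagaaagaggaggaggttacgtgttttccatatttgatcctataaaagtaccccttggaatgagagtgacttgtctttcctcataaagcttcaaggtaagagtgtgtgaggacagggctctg
Myh2 (GRCm38.p6, chr11:67170777-67171076, plus strand): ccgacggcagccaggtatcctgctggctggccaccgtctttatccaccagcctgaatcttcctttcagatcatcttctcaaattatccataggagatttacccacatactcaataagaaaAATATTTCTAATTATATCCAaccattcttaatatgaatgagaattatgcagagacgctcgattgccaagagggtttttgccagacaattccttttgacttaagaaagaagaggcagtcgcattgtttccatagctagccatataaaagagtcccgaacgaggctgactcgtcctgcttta
The shared stretch is 20 bases long and begins 163 bases before the start of Myh4, 165 before that of Myh1 and 130 before that of Myh2. Among 27025 promoter windows read on the gene's strand, only these 3 hold it. The Myh8 window holds a version with 18 of 20 bases the same, beginning 59 bases before the start, and only 4 windows of all match as well as that. Capitals mark the matching bases.
Myh8: AATAcTTCTAATTATATCCg
The other members' best ungapped matches had 10 to 13 of 20 bases (Myh7b and Myh6 10, Myh3 11, Myh7 13). A TATAAA box, searched on both strands, was in 6 of the 8 windows and in 14.2% of all windows. The MEF2 site, a motif known from muscle promoters, was in the windows of Myh1, Myh4 and Myh8 and in 3.26% of all windows, while the E-box CANNTG was in 6 of 8 and in 72.1% of all. A CArG box was in the Myh4 window and in 1.57% of all. A MEF2 site can overlap a TATAAA box. These matches are descriptions of the sequence only.

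The likeness of the genes limits how finely their reads can be told apart. The coding sequences of Myh1, Myh2, Myh4 and Myh8 were identical at 81.3% of 5805 aligned positions. Pairwise identity was 91.0% for Myh1 and Myh2, 90.1% for Myh1 and Myh4, 88.2% for Myh2 and Myh4, and 91.7% for Myh6 and Myh7. Of the 50-base stretches in the Myh1 transcript, 19.7% also occur in Myh2 and 10.5% in Myh4. For Myh6, 22.6% of 50-base stretches and 11.4% of 100-base stretches also occur in Myh7. Fragments from such stretches may be split or lost by counting, so a small share of one isoform beside a large share of another is uncertain. Across the 4 fast and perinatal genes, the 60 coding positions that differ most are printed to show what separates them. They span positions 1003 to 1062 of each coding sequence, counted from the first base of the start codon, and capitals mark the 27 positions at which the 4 genes are not all the same.
Myh1 (GRCm38, plus strand, exons 11 and 12, chr11:67205787-67205966): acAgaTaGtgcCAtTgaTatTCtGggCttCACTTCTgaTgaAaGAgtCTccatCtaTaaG
Myh2 (exons 11 and 12, chr11:67178369-67178891): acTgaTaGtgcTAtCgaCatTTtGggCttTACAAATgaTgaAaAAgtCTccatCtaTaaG
Myh4 (exons 10 and 11, chr11:67243523-67244650): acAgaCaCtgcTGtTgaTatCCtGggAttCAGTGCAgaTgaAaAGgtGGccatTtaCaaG
Myh8 (exons 11 and 12, chr11:67284723-67284936): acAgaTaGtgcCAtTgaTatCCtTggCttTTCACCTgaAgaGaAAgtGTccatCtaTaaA
Myh11 was the most distant member, with 53.6% to 55.7% identity to the other 8.

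The cardiac and slow genes each host a microRNA on their own strand, a family known from striated muscle. These lie in intron 29 of Myh6 (chr14:54949072-54949093), intron 31 of Myh7 (chr14:54975710-54975731) and intron 19 of Myh7b (chr2:155622893-155622913). Mature sequences from RefSeq are printed with the seed, bases 2 to 8, in capitals to show what the hosts share.
miR-208a-3p, in Myh6: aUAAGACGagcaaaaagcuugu
miR-208b-3p, in Myh7: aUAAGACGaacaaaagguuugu
miR-499-5p, in Myh7b: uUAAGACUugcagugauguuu
The seeds of miR-208a-3p and miR-208b-3p are the same, and that of miR-499-5p has another last base. The libraries were made by oligo(dT) selection, and the mature microRNAs were not measured.

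Among the 7 tissues, the striated chains separated limb muscle from heart. Myh4 was 16821 FPKM in TA muscle, 77.6 in BAT, 36.7 in WAT, 6.96 in brain, 1.87 in heart, 0.901 in small intestine and 0.294 in liver. Thus TA held 99.3% of the Myh4 signal summed over the tissues, and with 0.1 FPKM added to each value the next tissue, BAT, was 216 times lower. Myh1 was 2171 FPKM in TA, 11.8 in BAT and 4.89 in WAT, and lay between 0.0865 and 1.32 FPKM in the other 4 tissues. Myh2 was 207 FPKM in TA, 4.32 in WAT and 3.55 in BAT, and at most 0.883 FPKM elsewhere. The top tissue was TA for all 3 adult fast genes, and fat stood next, ahead of heart and brain.

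**Figure D1:**
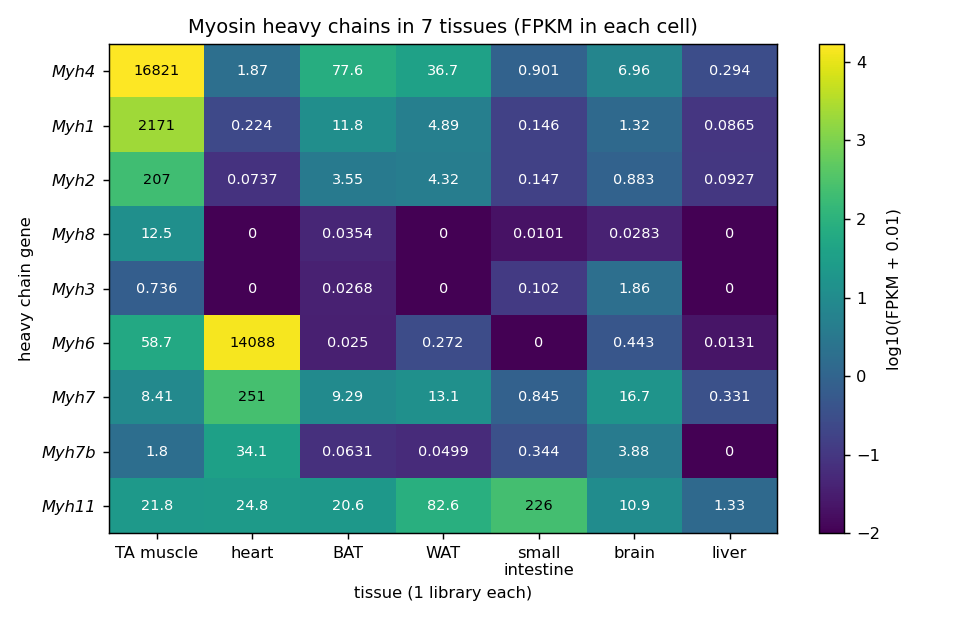
Levels of 9 myosin heavy chain genes (rows) in 7 tissues (columns, 1 library each), with FPKM printed in each cell and the colour giving log10(FPKM + 0.01). The bright cells are Myh4 (16821) and Myh1 (2171) in TA muscle and Myh6 (14088) in heart, and Myh11 is brightest in small intestine (226).

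Within TA, Myh4 made up 87.6% of the summed FPKM of Myh1, Myh2, Myh4 and Myh7, Myh1 11.3%, Myh2 1.08% and Myh7 0.0438%. The labelled muscle is one known for fast fibres, and its slow chain was listed at 8.41 FPKM. The perinatal chain Myh8 was 12.5 FPKM in TA, above Myh7, at most 0.0354 FPKM in BAT, brain and small intestine, and listed at 0 in heart, liver and WAT. The embryonic chain Myh3 was 0.736 FPKM in TA and 1.86 in brain, and 0.102 or lower in the other tissues. Of 10 genes of regenerating and newborn muscle, 4 were listed at 0 in TA, and Myf6, a factor of mature fibres as well, led the rest at 74.3 FPKM.

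The cardiac chains showed a different order. Myh6 was 14088 FPKM in heart, 58.7 in TA, 0.443 in brain, 0.272 in WAT, 0.0250 in BAT, 0.0131 in liver and listed at 0 in small intestine. Heart held 99.6% of its summed signal. Myh7 was 251 FPKM in heart, 16.7 in brain, 13.1 in WAT, 9.29 in BAT, 8.41 in TA, 0.845 in small intestine and 0.331 in liver. Thus the slow chain was lower in TA than in either fat library, a difference that cannot be tested with 1 library each. Myh7b was 34.1 FPKM in heart, 3.88 in brain and 1.80 in TA, 0.344 in small intestine, and below 0.1 FPKM in fat. In heart, Myh6 made up 97.8% of the sum over all 9 genes and Myh7 1.75%, the pattern known for the adult mouse heart.

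The level of Myh6 in TA was 0.417% of that in heart. Other genes of heart muscle were found in TA at low levels too: 8 of 10 cardiac partners were above 0, with a median of 0.696% of the heart level, among them Tnnt2, cardiac troponin T, at 0.652%, Tnni3, cardiac troponin I, at 0.739%, and Mybpc3, the cardiac myosin-binding protein, at 0.436%. Nppb and Myl7 were listed at 0 in TA, and Myl4 was at 67.7% of its heart level. In the other direction, Myh4 in heart was 0.0111% of the TA level. Whether Myh6 in the TA library came from limb fibres was not tested.

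Antisense genes overlap several members, and the study gives its alignment settings as unstranded, so reads of both strands cannot be told apart there. Mhrt shares 484 exonic bases with Myh7 and was 89.7 FPKM in heart, Gm31251 shares 523 bases and was 37.1 FPKM in heart, and both were listed at 0 in liver, WAT, BAT and small intestine. Myhas, which shares 515 exonic bases with Myh1, was 30.2 FPKM in TA and at most 0.148 FPKM elsewhere. The antisense level was small beside Myh1 in TA, while in heart Mhrt (89.7 FPKM) was nearer to Myh7 (251 FPKM).

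Myh11 had an order of its own. It was 226 FPKM in small intestine, a tissue with a thick smooth muscle coat, 82.6 in WAT, 24.8 in heart, 21.8 in TA, 20.6 in BAT, 10.9 in brain and 1.33 in liver. Of 11 genes in the smooth muscle list, 7 were also highest in small intestine with WAT next: calponin Cnn1 was 39.0 FPKM in small intestine and 9.24 in WAT, and at most 1.82 elsewhere. Myosin light chain kinase, Mylk, was 146 FPKM in small intestine and 61.0 in WAT. The summed list was highest in TA (960.0 FPKM) and heart (662 FPKM), above small intestine (594 FPKM) and WAT (403 FPKM), and desmin, Des, which striated muscle also makes, gave 876 FPKM of the sum in TA.

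The genes most like each member over the 7 tissues were named by Pearson's r among 6955 genes that reached 20 FPKM in some tissue. For Myh4 these were Atp2a1, the calcium pump of fast fibres, and the fast troponins Tnni2 and Tnnt3 (r = 0.995, 0.995 and 0.994). For Myh6 they were Adprhl1, Actc1 and Ankrd1 (r from 0.996 to 0.999), for Myh7 Slc8a1, Cryab and Tnnc1 (r from 0.906 to 0.925), and for Myh11 Ace, Lsm3 and Specc1l (r from 0.979 to 0.993). With 7 points, 1 of them far above the rest, such values describe the top tissue and little else.

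In the BAT library of the 7-tissue set Myh4 stood close to its TA proportion beside the fast fibre partners, and in the WAT library it was lower. In both fat libraries the slow chain made up more of the adult chains than in TA. Per 100 FPKM of the summed 18 fast fibre partners, Myh4 was 11.9 FPKM in TA, 13.1 in the 7-tissue BAT library and 8.45 in the 7-tissue WAT library. Per 100 FPKM of Myh4, by contrast, Myh7 was 0.05 FPKM in TA, 12 in that BAT library and 35.6 in that WAT library. Myh2 stood at 1.23, 4.58 and 11.8 per 100 FPKM of Myh4 in TA, BAT and WAT. No muscle that borders these fat depots was sequenced, and in bulk samples more fibres and more RNA per fibre cannot be told apart.

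**Figure D2:**
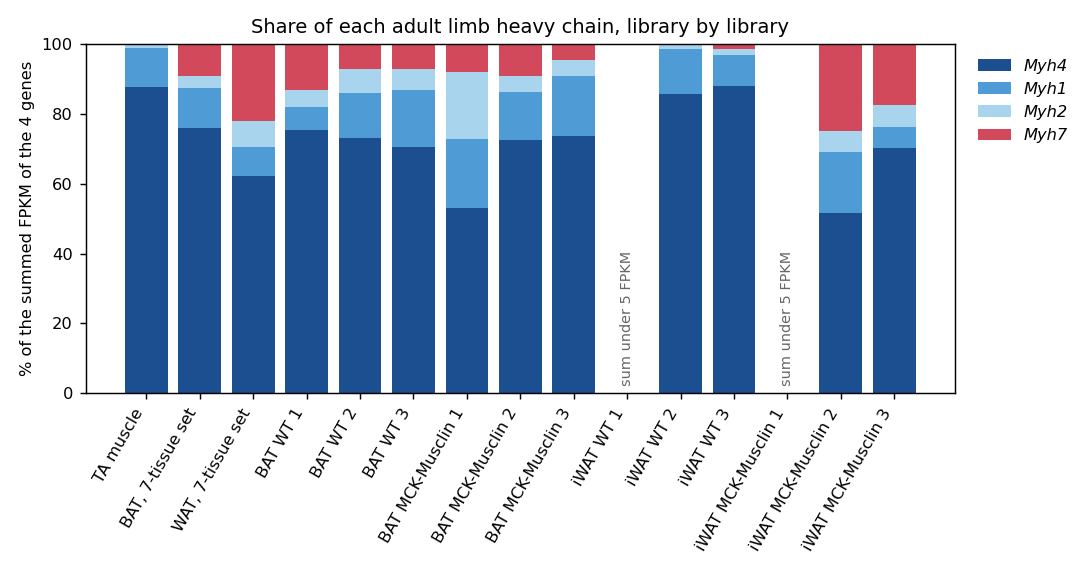
Share of Myh4, Myh1, Myh2 and Myh7 in their summed FPKM (% on the vertical axis) for the TA muscle and both fat libraries of the 7-tissue set and for the 12 fat libraries of cold-exposed mice. Libraries with a sum under 5 FPKM have no bar. Myh4 is the largest share in every bar drawn, and Myh7 ranges from 0.0438% in TA to 25.0% in iWAT MCK-Musclin 2.

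In BAT after cold, 2 of the 3 adult fast chains, Myh4 and Myh1, were higher in MCK-Musclin than in WT mice at the study's unadjusted cutoff, and Myh2 overlapped between the groups. Myh4 was 91.8, 125 and 73.5 FPKM in the WT libraries and 221, 130 and 165 FPKM in the MCK-Musclin libraries, so the groups did not overlap, though the closest pair were 125 and 130. The means were 96.9 ± 26.3 and 172 ± 45.5 FPKM (SD, n = 3 each), a log2 difference of 0.82 on the log2(FPKM + 1) scale (SE 0.24, 95% interval 0.27 to 1.38, limma adjusted p = 0.929). Myh1 was 8.01, 22.4 and 17 FPKM in WT and 83.0, 24.9 and 37.8 FPKM in MCK-Musclin, again without overlap. Its log2 difference was 1.49 (SE 0.48, 95% interval 0.38 to 2.61, limma adjusted p = 0.968).

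Both genes passed the study's cutoff of an unadjusted p under 0.05 with a log2 difference above 0.3, and neither passed the adjustment over all genes. At that cutoff 4.0% of the 10893 BAT genes tested passed, 2 of the 5 members tested among them. At an adjusted p under 0.05, 0.00918% passed, which was 1 gene, Ostn itself (adjusted p = 3.83e-06). MCK-Musclin libraries lay wholly above the WT libraries for 4.38% of genes and wholly below for 5.63%. Of the 5 members tested, 2 lay above and 0 below. With 3 libraries a group, an exact permutation test of 1 gene cannot go below p = 0.1. Per the study the libraries of a group came from independent animals.

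Myh2 did not separate the groups. It was 5.69, 11.8 and 6.24 FPKM in WT and 79.7, 8.31 and 10.3 FPKM in MCK-Musclin, where 1 library decided the mean (log2 difference 1.26, SE 0.76, 95% interval -0.52 to 3.04, adjusted p = 0.968). Without MCK-Musclin 1 the difference was 0.27. Myh7 was 16.1, 12.2 and 7.50 FPKM in WT and 33.6, 16.3 and 10.5 FPKM in MCK-Musclin, with overlap (log2 difference 0.61, SE 0.41, 95% interval -0.35 to 1.57, adjusted p = 0.968) and 0.18 without MCK-Musclin 1. Without MCK-Musclin 3 it was 0.98 and passed the cutoff. Thus the IIa and the slow chain both rest on single libraries here.

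The calls of Myh4 and Myh1 held without the library that stood apart. Without MCK-Musclin 1 the difference of Myh4 was 0.63 and that of Myh1 1.02, and both stayed past the cutoff. Leaving out WT 1 instead, the library with the lowest Myh1, took Myh1 to 1.10 with an unadjusted p just above 0.05, so that its call was lost, while Myh4 kept its call whichever library was left out (0.63 to 1.02).

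**Figure D3:**
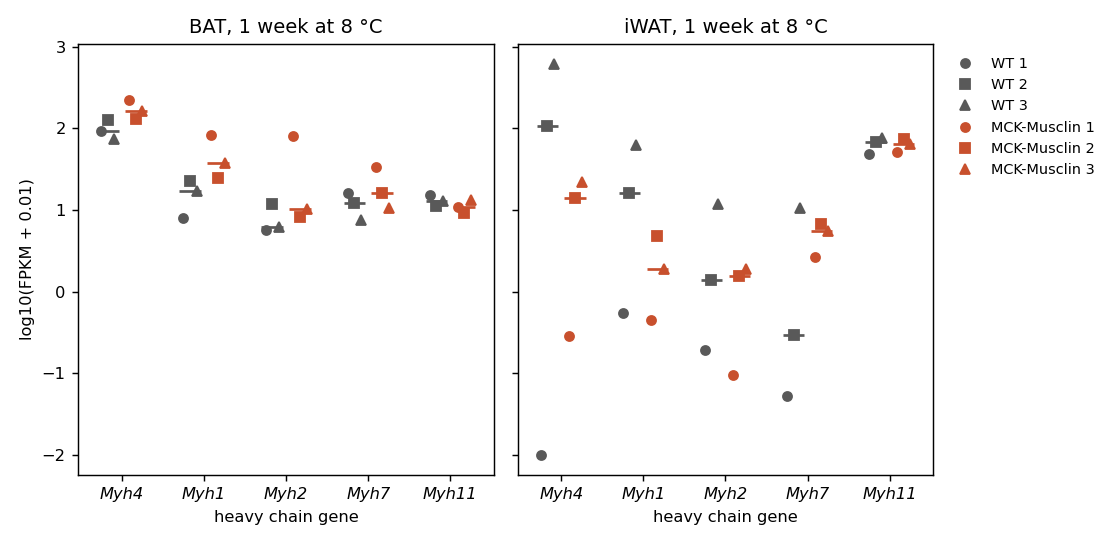
Levels of 5 heavy chain genes in BAT (left) and iWAT (right) of mice kept at 8 °C for 1 week, as log10(FPKM + 0.01), with 1 symbol for each of 3 WT (grey) and 3 MCK-Musclin (orange) libraries and a bar at each median. In BAT the Myh4 and Myh1 symbols of the groups do not overlap, in iWAT all 5 genes overlap, and Myh4 in iWAT spans from a listed 0 (drawn at -2) to 621 FPKM.

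The other members were low in BAT and stayed under the filter of a mean of 1 FPKM over the 6 libraries. Myh3 was 0.0851, 0.00716 and 0.0313 FPKM in WT and 2.58, 0 and 0.0422 FPKM in MCK-Musclin, and Myh8 was at most 0.104 FPKM in WT and 0.514, 0.0731 and 0.0865 FPKM in MCK-Musclin. MCK-Musclin 1 was thus the highest library for both developmental chains, as it was for Myh1, Myh2, Myh4 and Myh7. It also led for Tnnt1, the slow troponin T (71.5 FPKM against 6.77 to 25.5 in the other 5), and for Myog, a factor of differentiating muscle (0.273 FPKM against at most 0.140). Myog is from the list of 10 genes of regenerating and newborn muscle, of which 0 reached the filter in BAT. Myh6 was at most 0.347 FPKM in all 6 libraries, and the cardiac genes Mybpc3, Nppa, Nppb and Myl7 were listed at 0 in all of them. Myh7b was 0.264 to 0.431 FPKM in WT and 0.340 to 0.935 FPKM in MCK-Musclin.

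Myh11 in BAT was 15.2, 11.2 and 12.7 FPKM in WT and 10.9, 9.21 and 13.2 FPKM in MCK-Musclin, so the groups overlapped (log2 difference -0.22, SE 0.16, 95% interval -0.59 to 0.15, adjusted p = 0.968). Among the smooth muscle partners 0 of 9 tested passed the cutoff, with a median of -0.13. Summed adipocyte markers were 8233 to 9026 FPKM in WT and 7740 to 8529 FPKM in MCK-Musclin, with 9 of 10 markers below 0 in log2 difference and 0 past the cutoff. Of these, Cidec and Pnpla2 lay wholly below WT, as did 5.63% of all genes. Summed brown adipocyte markers were 8889 to 10299.9 FPKM in WT and 8560 to 9916 FPKM in MCK-Musclin, with 1 of 8 past the cutoff, Cox8b, which was lower (-0.35). Their part in the muscle gene levels of BAT was not tested.

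The fast fibre partners were higher with Myh4. These are 18 genes of the light chains, troponins, calcium handling and energy supply of fast fibres, chosen with earlier results of these data known. In BAT, 17 of 18 passed the cutoff, all higher in MCK-Musclin, beside the 4.0% of all genes, and the median log2 difference was 0.85 beside -0.01 over all genes tested. Tnnt3, fast troponin T, rose from 107 ± 32.4 to 245 ± 97.0 FPKM (SD, n = 3 each, log2 difference 1.15, SE 0.32), and its groups overlapped between WT 2 (143.8 FPKM) and MCK-Musclin 2 (143.7 FPKM), and Acta1, skeletal actin, from 60.2 ± 19.4 to 139 ± 73.3 FPKM (1.12, SE 0.36). The gene that missed the cutoff was Mylpf, the fast regulatory light chain (0.70, 95% interval -0.03 to 1.44). MCK-Musclin lay wholly above WT for 10 of the 18, beside 4.38% of all genes. The count past the cutoff was 13 without MCK-Musclin 1, 10 without WT 1 and 9 without WT 3, and 14 to 18 without each of the others.

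The slow fibre partners were higher in mean but not by the test. In BAT 0 of 8 passed, with a median of 0.75 and all 8 above 0. MCK-Musclin 1 was the highest BAT library for Myl2, Tnni1, Tnnt1 and Tnnc1, and no fit without it is given for this list. Tnnt1 was 19.8, 20.5 and 6.77 FPKM in WT and 71.5, 25.5 and 8.51 FPKM in MCK-Musclin. Tnnc1 was 5.82, 5.01 and 3.35 FPKM in WT and 15.8, 7.31 and 3.85 FPKM in MCK-Musclin. Myl2, the slow and ventricular regulatory light chain, was 1.12, 2.25 and 0.981 FPKM in WT and 12.3, 5.89 and 0.771 FPKM in MCK-Musclin, so MCK-Musclin 3 was the lowest of all. Tnni1, slow troponin I, had the same order in MCK-Musclin, at 6.39, 3.06 and 0.131 FPKM. The slow chain Myh7 followed it, at 33.6, 16.3 and 10.5 FPKM. Among thick filament genes and myosin chaperones, titin Ttn (0.69) and myomesin Myom1 (0.62) passed, both higher. Unc45b, a chaperone of striated myosin, did not separate the groups, with 3.99 to 5.20 FPKM in WT and 3.74 to 4.45 FPKM in MCK-Musclin.

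**Figure D4:**
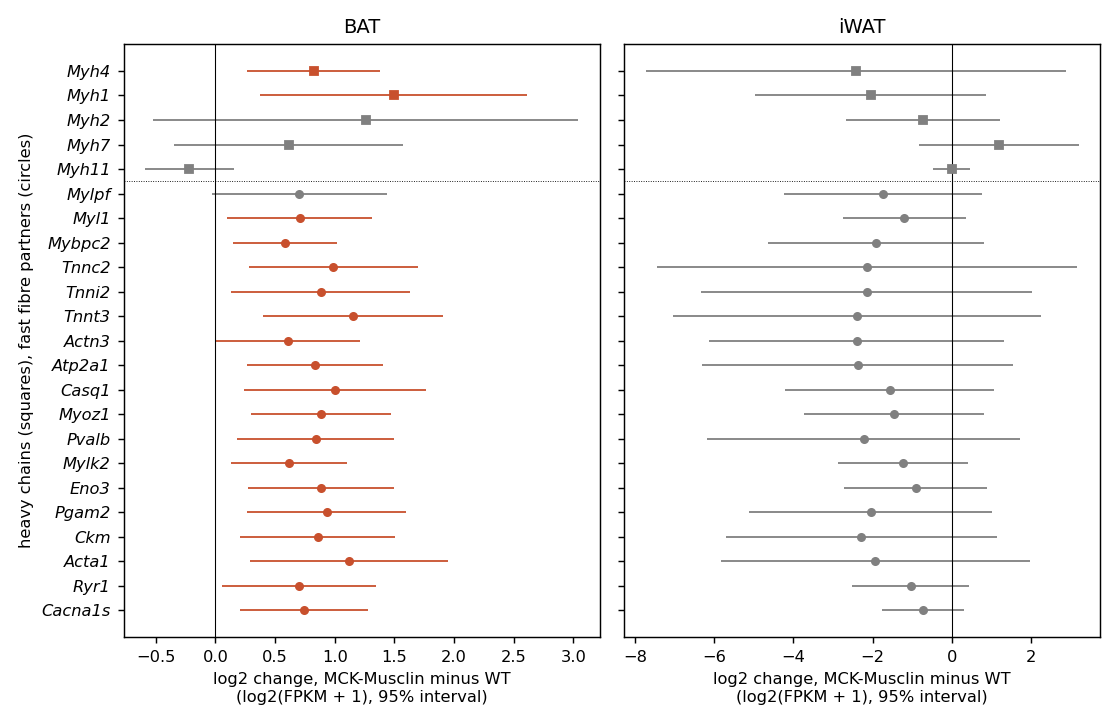
Log2 differences (MCK-Musclin minus WT, on the log2(FPKM + 1) scale) with 95% intervals for 5 heavy chains (squares) and 18 fast fibre partners (circles) in BAT and iWAT, with orange for genes past the study's cutoff. In BAT Myh4, Myh1 and 17 partners are orange and to the right of 0, and in iWAT no gene is orange and all 18 partners lie to the left of 0 with wide intervals.

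Myh4 stayed in proportion to the fast partners in BAT. Per 100 FPKM of their sum it was 15.3, 15.3 and 13.7 in WT and 11.9, 15.0 and 13.4 in MCK-Musclin, beside 11.9 in TA. The share of Myh4 among the 4 adult chains was 75.5%, 73.0% and 70.5% in WT and 52.9%, 72.5% and 73.8% in MCK-Musclin. The low value belonged to MCK-Musclin 1, where Myh1 held 19.9% and Myh2 19.1%, against 4.61% to 6.85% of Myh2 in the other 5 libraries. Myh7 held 7.09% to 13.2% in WT and 4.69% to 9.05% in MCK-Musclin, so its share did not follow the groups. Beside these values, Ostn per 100 FPKM of Myh4 was 17.2, 24.3 and 18.4 in the MCK-Musclin libraries. Which cells of the BAT samples held the Ostn transcript was not tested.

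In iWAT the chains varied more between libraries of the same group than between groups. Myh4 was listed at 0 in WT 1 and was 108 and 621 FPKM in WT 2 and WT 3, and it was 0.276, 14.1 and 22.0 FPKM in MCK-Musclin. The highest libraries were both WT, and so was the lowest, so the groups overlapped (log2 difference -2.42, SE 2.27, 95% interval -7.74 to 2.90, limma adjusted p = 0.633). Myh1 was 0.537, 16.3 and 63.0 FPKM in WT and 0.440, 4.8 and 1.88 FPKM in MCK-Musclin (-2.05, SE 1.25, adjusted p = 0.451). Myh2 was 0.185, 1.39 and 11.9 FPKM in WT and 0.0861, 1.57 and 1.91 FPKM in MCK-Musclin (-0.72, SE 0.83, adjusted p = 0.703).

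None of the 5 members tested in iWAT passed the cutoff of an unadjusted p under 0.05 with a log2 difference above 0.5, which 5.94% of the 12197 genes passed. No gene passed at an adjusted p under 0.05 in limma (0%), with 2012 genes at an unadjusted p under 0.05. MCK-Musclin libraries lay wholly above WT for 17.9% of genes and wholly below for 5.44%, and 0 of the 5 members did either. The count moved with single libraries: without WT 1 Myh4 was -5.09 and Myh1 -3.53, and both passed. With all libraries kept, a fit with the replicate number as a block also took Myh1 and Myh4 past the cutoff. The labels name no pairs. Without WT 3, the library richest in muscle genes, Myh4 was -0.45, Myh2 changed sign to 0.26, and Myh7 passed at 2.30. Myh4 and Myh1 stayed below 0 whichever library was left out, so that their size and call, and for Myh2 also the direction, depended on single libraries.

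Myh7 in iWAT went its own way. It was 0.0435, 0.285 and 10.5 FPKM in WT and 2.62, 6.84 and 5.47 FPKM in MCK-Musclin (log2 difference 1.19, SE 0.86, 95% interval -0.83 to 3.21, adjusted p = 0.525). WT 2 held 108 FPKM of Myh4 and 0.285 FPKM of Myh7, while MCK-Musclin 1 held 0.276 FPKM of Myh4 and 2.62 FPKM of Myh7. Without WT 3 the difference was 2.30 and passed the cutoff. Per 100 FPKM of Myh4, Myh7 was 0.264 and 1.69 in WT 2 and WT 3 and 48.5 and 24.9 in MCK-Musclin 2 and 3. The share of Myh7 among the 4 chains was accordingly 0.227% and 1.48% in those WT libraries and 25.0% and 17.5% in those MCK-Musclin libraries, beside 22.1% in the 7-tissue WAT library. WT 1 and MCK-Musclin 1 had sums of 0.766 and 3.43 FPKM, too low for shares.

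The slow troponin had nearly the order of Myh7 over the iWAT libraries. Tnnt1 was 2.99, 1.68 and 17.4 FPKM in WT and 3.11, 4.64 and 7.76 FPKM in MCK-Musclin, so WT 3 was highest for both and MCK-Musclin 2 and 3 came next. The log2 difference of Tnnt1 was nonetheless only 0.02. The other slow partners tested were below 0, Mybpc1 at -1.08 and Tnnc1 at -0.13. None of the slow partners passed, 0 of 3 tested. The 3 genes most like Myh7 over the 6 iWAT libraries were Zfp932, Qsox2 and 2700046G09Rik (r from 0.979 to 0.984), of which none is a known fibre gene. For Myh4 they were the fast troponins Tnnt3, Tnnc2 and Tnni2 (r from 0.995 to 0.999). In BAT the closest to Myh4 were Tnnc2, Dnajc1 and Cox6a2 (r from 0.990 to 0.991), and to Myh7 Plaa, Myom3 and Kif16b (r from 0.989 to 0.992). Such values over 6 libraries among this many genes are descriptions, and the points share the group difference.

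All 18 fast fibre partners were lower in mean in MCK-Musclin iWAT, with a median of -1.92 beside 0.06 over all genes, and 0 of 18 passed. Without WT 1, 18 of 18 passed, and without WT 3 none did. Tnnt3 was 2.55, 207 and 968 FPKM in WT and 2.46, 32.1 and 42.6 FPKM in MCK-Musclin. Per 100 FPKM of the partners Myh4 was 12.7 and 13.4 in WT 2 and WT 3, close to the 11.9 of TA, and 6.61 and 9.85 in MCK-Musclin 2 and 3. In the libraries poorest in muscle genes it was not close: MCK-Musclin 1 had 0.546, and WT 1, with Myh4 listed at 0, had none, at partner sums of 50.6 and 51.1 FPKM. The light chain Myl1 alone gave 31.1 and 33.6 FPKM of those sums, while Ckm was listed at 0 in both libraries. Myl1 gave 49.1 of 213 FPKM in MCK-Musclin 2 and 35.0 of 223 FPKM in MCK-Musclin 3. In WT it gave 73.8 of 848 FPKM in WT 2 and 269 of 4651 FPKM in WT 3. The ratios to the sum thus depend in part on Myl1 where the sum is low. Brown adipocyte markers moved as well: 5 of 8 passed, all lower, beside 110 of all 12197 genes that passed lower. Their summed level was 573 to 1068 FPKM in WT and 119 to 644 FPKM in MCK-Musclin. Their part in the muscle gene levels was not tested. Summed adipocyte markers were 16474 to 17655 FPKM in WT and 14759 to 16700.0 FPKM in MCK-Musclin, with 0 of 10 past the cutoff.

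Myh6 was not analysed in iWAT. Of 10 cardiac partners 3 were tested and 2 passed, both higher, beside 5.94% of all genes. Among all genes past the cutoff 615 were higher and 110 lower. Cardiac troponin T, Tnnt2, was 0.736, 0.771 and 1.04 FPKM in WT and 1.63, 2.51 and 1.40 FPKM in MCK-Musclin (log2 difference 0.61, SE 0.17). Cardiac troponin I, Tnni3, was 2.89 to 3.69 FPKM in WT and 4.05 to 6.62 FPKM in MCK-Musclin (0.50, SE 0.17). In BAT 1 cardiac partner was high enough to test and did not pass. Myom1 did not pass in iWAT (95% interval -2.47 to 0.48), and Ttn was under the filter there. The other class II heavy chains had no call in either depot, 0 of 3 tested in each. Nonmuscle Myh9, found in most cells, was 127 ± 7.38 FPKM in WT and 165 ± 7.58 FPKM in MCK-Musclin iWAT (SD, n = 3 each), without overlap and with a log2 difference of 0.37, under the 0.5 the cutoff asks. In iWAT 17.9% of all genes lay wholly above WT. Myh14 of the same list lay wholly below WT, with means of 4.16 and 3.27 FPKM (-0.28), as did 5.44% of all genes.

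**Figure D5:**
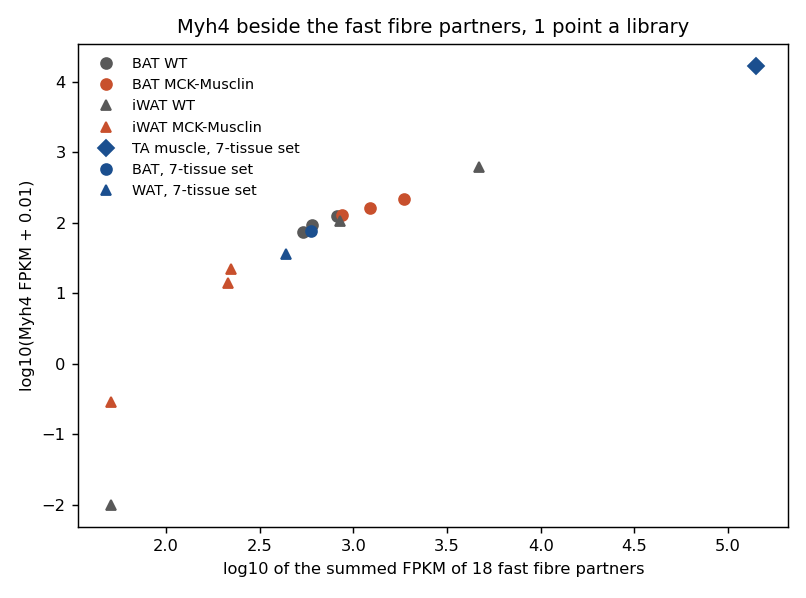
Myh4 as log10(FPKM + 0.01) against log10 of the summed FPKM of 18 fast fibre partners, 1 point for each of the 12 fat libraries of cold-exposed mice and 3 libraries of the 7-tissue set. TA muscle is at the upper right, the 6 BAT libraries lie together, and the iWAT libraries run from WT 1 (Myh4 listed at 0, drawn at -2) to WT 3 (621 FPKM).

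The smooth muscle chain was the steadiest member in iWAT. Myh11 was 48.0, 68.2 and 75.6 FPKM in WT and 51.5, 74.9 and 64.9 FPKM in MCK-Musclin, with means of 63.9 ± 14.3 and 63.8 ± 11.7 FPKM (SD, n = 3 each). The log2 difference was 0.01 (SE 0.20, 95% interval -0.46 to 0.47, adjusted p = 0.992). Its sign turned with the scaling, to -0.07 with median-ratio scaling, so no direction is given. Of 10 smooth muscle partners tested 0 passed, with a median of 0.08. The genes most like Myh11 in iWAT were Aspn, Plekha3 and the smooth muscle leiomodin Lmod1 (r from 0.988 to 0.994), and in BAT Znhit6, Stk19 and Trappc2 (r from 0.986 to 0.989). Myh11 was higher in every iWAT library (48.0 to 75.6 FPKM) than in every BAT library (9.21 to 15.2 FPKM), but the depots come from tables normalized separately, and RNA extraction differed.

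The striated chains in fat can be set against TA muscle. Myh4 was 0.437% to 0.745% of its TA level in WT BAT and 0.775% to 1.31% in MCK-Musclin BAT. It was 0 to 3.69% in WT iWAT and 0.00164% to 0.131% in MCK-Musclin iWAT. Myh2 was 2.75% to 5.69% in WT BAT. In MCK-Musclin BAT it was 38.5% in MCK-Musclin 1, and 4.02% and 4.98% in MCK-Musclin 2 and 3, within the WT range. Myh7 was 89.2% to 399% of the TA level across the 6 BAT libraries. These levels were set across tables that were normalized separately and are given as values with no test.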

How the data were processed

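RNA-seq libraries of 7 mouse tissues, iWAT and BAT were read from tables of FPKM that the authors deposited. Per the study's methods the reads were trimmed with fastp, aligned with HISAT2 to mm10 (GRCm38, Ensembl annotation) and turned into FPKM with StringTie. The submitters' processing notes list HISAT2 2.1.0, Bowtie2 2.4.1 and Cuffdiff. The study tested counts, and as the values here are FPKM, limma 3.58.1 in R was used instead on log2(FPKM + 1), with a variance trend, over genes with a mean of at least 1 FPKM in the 6 libraries of a depot, and p-values were adjusted by Benjamini-Hochberg over all of them. The filter and pseudocount shrink the differences of low genes. On data simulated from these libraries, 99 of 100 genes changed by 2 (log2) were recovered at an adjusted p under 0.05 in each depot, and of 100 changed by 1, 78 in iWAT and 72 in BAT. The most variable genes were kept out of those changed. The recovery therefore does not speak for genes as variable as Myh4 in iWAT (SE 2.27). Levels of single tissues were not tested. Repeated identical lines (287 in each of the 7-tissue and BAT tables) were kept once. Depth per sample is unknown: FPKM sums were 364710 to 384104 in iWAT and 676362 to 720852 in BAT, and the latter table gave 48.4% to 51.3% of its sum to 10 genes.

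The members and the gene lists were chosen with earlier results of these data known. A gene of the lists is not reported here. Named genes were the members, the lists' genes, the 3 genes most like Myh4, Myh6, Myh7 or Myh11 in the 7 tissues, and most like Myh4, Myh7 or Myh11 in each fat depot, overlapping genes and Ostn. Positions came from GENCODE M21 (GRCm38), promoters and microRNAs from RefSeq, and coding sequences were aligned with MAFFT. Alternatives covered the pseudocount, filter, scaling, variance model, replicate block and each left-out library. The labels give replicate numbers without naming pairs, and the numbers were not taken to pair the samples.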

Additional observations from a re-analysis of the deposited data

How the results depend on the processing

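Over the scalings, pseudocounts, filters and variance models tried, 0 members passed the cutoff in iWAT and 2 in BAT. With the main filter 5 members were tested in each depot, and other filters changed that number. Leaving out each library in turn gave 0 to 2 in iWAT and 1 to 3 in BAT. Genes lower at the cutoff in iWAT ranged from 92 to 213 over the left-out libraries (110 with all), genes higher from 527 to 844 (615 with all), and in BAT 240 to 301 lower (234 with all) and 167 to 280 higher (202 with all). A mean of at least 5 FPKM left 71 lower genes in iWAT, and 114 lower and 102 higher in BAT, as fewer genes were tested. Lower genes in iWAT were 201 after rescaling to TPM, 187 with median-ratio scaling, 181 with quantile normalization and 28 when libraries were centred on adipocyte markers, which gave 1848 higher. The same centring gave 56 lower and 431 higher in BAT. The share of calls that were higher moved in iWAT from 84.8% to 69.5% (median-ratio) and 98.5% (centring), and in BAT from 46.3% to 88.5% (centring). Centring shifted the median of all genes to 0.26 in iWAT and 0.12 in BAT. Genes at an adjusted p under 0.05 in iWAT were 0 in limma, 973 with centring and 86 without WT 1. The cause of these shifts was not tested. Summing over all 9 members instead of the 4 adult chains lowered the Myh4 share of WAT from 62.2% to 25.9%, as Myh11 joined the sum, and the Myh7 share of heart from 99.1% to 1.75%, as Myh6 did.

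The log2 difference of Myh11 in iWAT turned to -0.048 with TPM, -0.074 with median-ratio scaling, -0.056 with quantile normalization and -0.031 with library weights, and ranged from -0.18 to 0.15 over the left-out libraries. That of Myh2 in iWAT ranged from -1.47 to 0.26, negative unless WT 3 was left out.

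With the replicate block, 2 members passed in iWAT, Myh1 (-2.05) and Myh4 (-2.42), and 8 of 18 fast fibre partners passed lower. In BAT the block added Myh7 (0.61). Deviations of same-numbered libraries correlated at 0.0615 to 0.235 in iWAT, where 5 of 6 libraries were closest to their own number. In BAT they correlated at -0.0951 to 0.00937. The labels name no pairs, and the numbers were not taken to pair the samples in either depot. In iWAT the calls of Myh1, Myh4 and 8 fast fibre partners depend on that choice. The partner counts under other settings were chosen after seeing the data, and gave 13 to 18 in BAT over all settings that kept every library. Depth, unknown here, limits values below about 1 FPKM.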
